A study of Mus musculus with 4 samples.

Results

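The WNT ligands, their Frizzled receptors and secreted inhibitors were examined in whole kidneys of mice with experimental membranous nephropathy (MN) and of control mice. The genes were taken from the array annotation: every gene named Wnt, Fzd, Sfrp or Dkk followed by a digit, together with Frzb, Wif1, Lrp5, Lrp6, Axin2, Nkd1, Nkd2, Lef1 and Tcf7. This gave 46 genes measured by 59 probes, of 34607 genes and 55681 probes on the array. They comprised 19 ligands, 12 receptors and co-receptors (10 Frizzled genes with Lrp5 and Lrp6), 10 secreted inhibitors and 5 feedback or nuclear genes. The rule uses gene names only.

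Membranous nephropathy is a glomerular disease in which immune complexes form on the outer side of the capillary wall, under the podocytes. Female BALB/C mice, 6 weeks old at the start, were all first immunized with 0.2 mg of cationic bovine serum albumin (cBSA) in complete Freund's adjuvant. After a wait of 2 weeks the MN group was given 13 mg/kg of cBSA intravenously, 3 times weekly for 6 weeks, and the control group received vehicle on that schedule (named saline in the protocol and PBS in the sample description). The control mice therefore carried the adjuvant immunization too. RNA of 2 control and 2 MN kidney samples was hybridized to 1-colour Agilent arrays, slide 1 holding the arrays numbered 1 and slide 2 those numbered 2. The labels do not say whether the arrays of a group came from separate animals, so p-values measure only the spread between these samples, which may be technical.

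WNT proteins are secreted, lipid-modified ligands. In the canonical pathway a ligand joins a Frizzled receptor to an LRP5 or LRP6 co-receptor, beta-catenin is spared from breakdown, and it acts with TCF and LEF factors on target genes. SFRP proteins, FRZB and WIF1 bind ligands outside the cell, DKK1, DKK2 and DKK4 bind the LRP co-receptors, and AXIN2 and the NKD proteins restrain the signal from within. In the kidney WNT9B and WNT4 direct the formation of nephrons and WNT7B that of the medulla, and the pathway is known to become active again in injured tubules and podocytes.

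Each value rests on a probe of about 60 bases, and the probe decides which transcript is read. All 59 probes carry accessions that gave the same gene symbol in the RefSeq gene table. The last 30 bases of the probes of the 6 genes with the smallest unadjusted p, and of Tcf7, are shown because the results below turn on them. Capitals mark AATAAA, the signal that precedes a transcript's poly(A) tail, where these 30 bases hold it. The probes lie on mm9 at chr19:42272509-42272568 (Sfrp5, minus strand), chr13:19724488-19724547 (Sfrp4, plus), chr3:83577864-83577923 (Sfrp2, plus), chr5:135724815-135724874 (Fzd9, minus), chr1:59543192-59543251 (Fzd7, plus), chr1:64779479-64779538 (Fzd5, minus) and chr11:52066114-52066173 (Tcf7, minus).
Sfrp5: ctagacaacagatttggtccttaatttttt
Sfrp4: cctcctgttttaagagtttgacctaaaatg
Sfrp2: ctcgttttatgccctcatgagctctgacca
Fzd9: ctctggaagctgtgactggAATAAAccctc
Fzd7: agttctttgaaatgtgctagaagacttaca
Fzd5: acctagatgcaggactctgtgaaggtctta
Tcf7: tccaaagaaaaccaaaaggggttatccaag

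Over the full length of the probes, AATAAA lay in 7 of the 59 (11.9%), against 10.1% of all 55681 probes. The annotation used here does not place the probes in exons or UTRs of mm9, so only their span is given.

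A pair of receptor probes was alike in sequence. The probe that stands for Fzd2 (mm9 chr11:102467613-102467672, plus strand) and the dimmer of the Fzd7 probes (chr1:59541367-59541426, plus) share 42 of the 50 bases over which they overlap when shifted by 10 bases. Among 1698 pairs of probes from different genes of the list, the next most alike shared 28. Capitals mark the shared bases.
Fzd2: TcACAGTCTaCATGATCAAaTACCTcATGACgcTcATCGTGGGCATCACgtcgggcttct
Fzd7: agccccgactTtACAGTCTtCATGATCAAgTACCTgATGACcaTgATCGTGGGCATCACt

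The brighter Fzd7 probe, 1765 bases away and shown with the first set, is not part of this pair and stands for Fzd7 below. How much of either signal came from the other gene's transcript was not tested.

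The first comparison asked which genes of the pathway could be seen in the kidney at all. Levels are log2 of the processed signal minus the 75th percentile of the array, so 0 is the level that 75% of spots do not reach. A gene was called detected where at least 1 of its probes was well above background, the scanner software's own flag. Of the 46 genes, control array 1 showed 37 (80.4%) and control array 2 showed 41 (89.1%), while MN array 1 showed 36 (78.3%) and MN array 2 showed 35 (76.1%). Among all genes of the array the shares were 72.9%, 84.2%, 71.2% and 70.7%, in the same order. Control array 2 thus stood apart for all genes as well as for these, and its lowest detected level was -6.04, against -5.06, -4.89 and -4.77 on control array 1, MN array 1 and MN array 2.

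On all 4 arrays 35 genes were detected (76.1%; 67.4% of all genes), namely 13 of 19 ligands, 11 of 12 receptors, 8 of 10 inhibitors and 3 of 5 feedback or nuclear genes. The genes detected on no array were 5 (10.9%; 14.7% of all genes). These were the ligands Wnt2, Wnt3 and Wnt3a, the receptor gene Fzd10 and Dkk1, an inhibitor that binds LRP6. This says that their signals were not separable from background here, not that the transcripts were absent. Axin2, a feedback gene often read as a gauge of the canonical pathway, was among 4 genes detected on control array 2 alone, with Dkk4, Wnt6 and Wnt7a (8.70%; 9.29% of all genes). Its levels were -6.02 and -4.98 in control and -6.90 and -6.90 in MN, so only 1 of the 4 values was above background and no difference was tested. Wnt6 shows what the detection limit does: its level on control array 2, -5.45, was flagged as detected, while -5.19 and -5.29 on the MN arrays were not, and control array 1 was at -6.96.

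**Figure D1:**
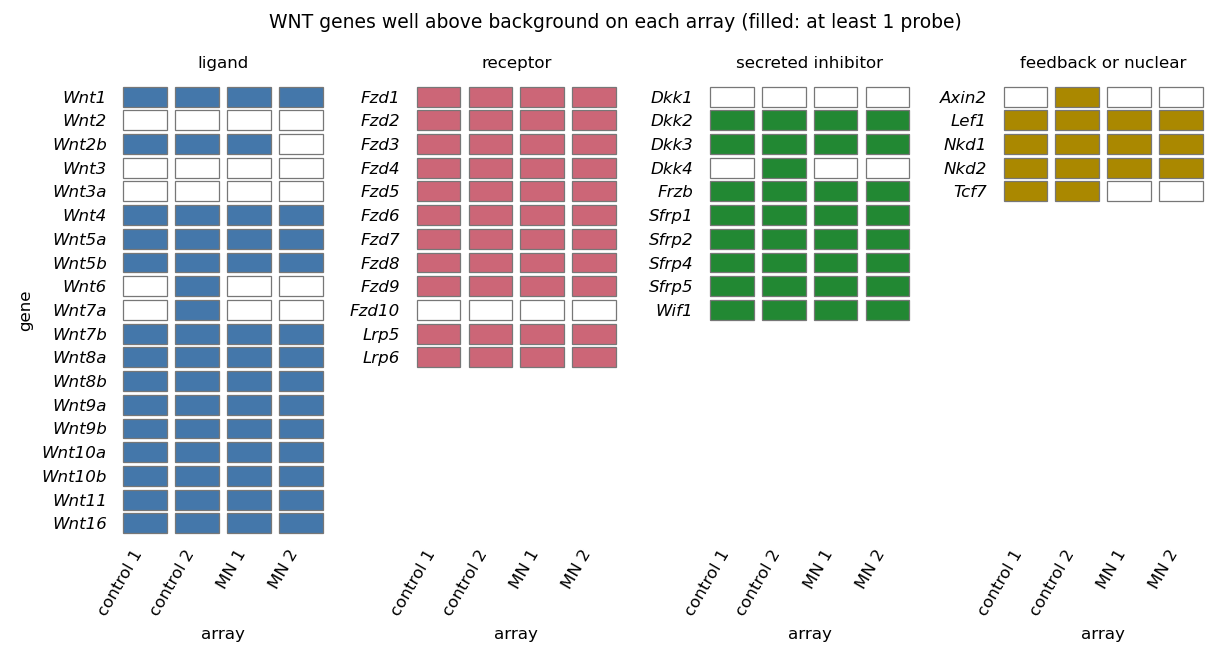
Detection of the 46 WNT genes, grouped by role, on the 2 control and 2 MN arrays. A filled cell is a gene with at least 1 probe well above background; 35 genes are filled on all 4 arrays, 5 on none, and Axin2, Dkk4, Wnt6 and Wnt7a on control array 2 only.

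Detection differed between the groups in 1 direction. Tcf7 was the only gene detected on both control arrays and on no MN array (background 1.99% of all genes), and 0 genes were detected on both MN arrays and on no control array (background 0.0982%). Wnt2b was detected on 3 arrays and not on MN array 2. In all, 6 genes were detected on more control than MN arrays (13.0%) and 0 on more MN arrays, while the shares over the whole array were 14.7% and 1.29%. The count for these genes was therefore near that of the array as a whole.

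The second comparison asked whether levels differed between MN and control. Of the 46 genes, 37 were detected throughout the control group, the MN group or both, and so entered the limma fit with 25296 genes in all. None of the 37 passed an adjusted p of 0.05 (background 0.0198% of all genes), and the smallest adjusted p was 0.345. At an unadjusted p under 0.05 there were 3 genes with higher values in MN (Sfrp5, Sfrp4 and Sfrp2; background 3.54%) and 3 with lower values (Fzd5, Fzd7 and Fzd9; background 3.49%), 6 in all (background 7.04%). Values were higher in MN for 14 genes and lower for 23 (background 38.6% and 61.4%). Both MN arrays lay above both control arrays for 6 genes (background 13.2%) and below them for 12 (background 19.8%). The other 19 overlapped. The median difference, MN minus control, was -0.15 over the 37 genes and -0.05 over all genes tested. The number of arrays, 2 in each group, limits the precision of every difference given here.

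With the slide as a block, which sets each MN array against the control array of its own slide, 10 of the 37 genes had an unadjusted p under 0.05 (background 15.3%). They were Sfrp2, Sfrp4, Sfrp5, Fzd2, Fzd4, Fzd6, Fzd7, Fzd8, Fzd9 and Nkd2. Again 0 passed the adjusted threshold (background 0%), and the smallest adjusted p was 0.172, for Sfrp5.

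**Figure D2:**
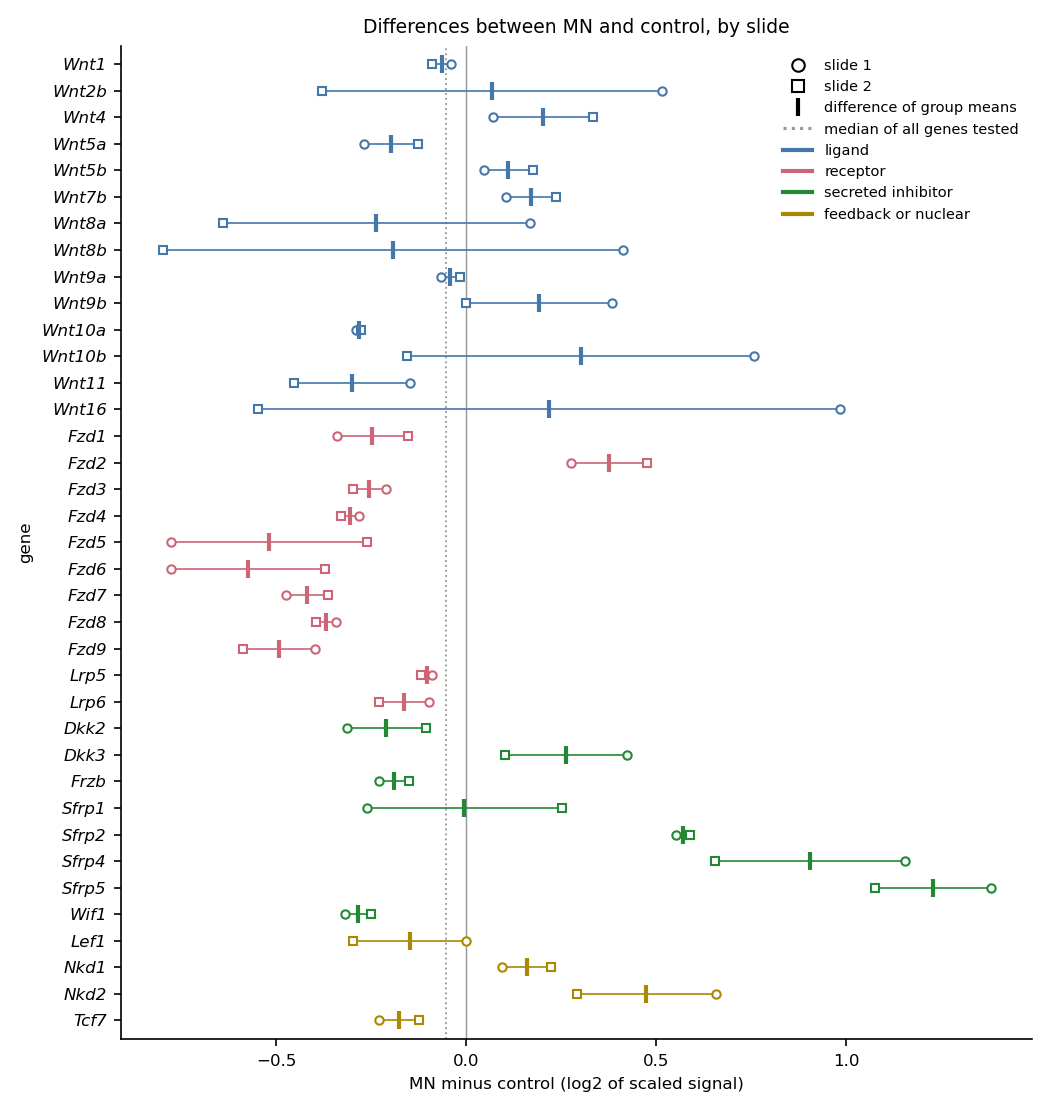
Difference between MN and control (log2 of scaled signal, horizontal axis) of the 37 genes tested, with the slide 1 pair as a circle, the slide 2 pair as a square and the difference of group means as a bar; colours give the role and the dotted line the median of all genes tested, -0.05. Frizzled genes other than Fzd2 lie left of the dotted line on both slides, Sfrp2, Sfrp4 and Sfrp5 lie right of it, and ligands lie on both sides.

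Among the ligands the differences were small. Of 14 tested, 7 had higher and 7 lower values in MN, the median was 0.01, and the differences ran from -0.30 to 0.30. In 13 of the 14 the groups overlapped. Both MN arrays lay above both control arrays for 1 ligand (background 13.2%) and below them for 0 (background 19.8%). Wnt4, which drives the change of kidney mesenchyme into epithelium, was the exception: its levels were -1.55 and -1.59 in control and -1.48 and -1.25 in MN, a difference of 0.20 ± 0.15 (log2, SE, as throughout). A second Wnt4 probe gave 0.03.

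Wnt11, a ligand of the tips of the ureteric bud, was at -2.94 and -2.36 in control and at -3.09 and -2.81 in MN (-0.30 ± 0.26). Control array 2 was the highest of the 4, and control array 1 lay between the MN arrays. Wnt10a was at -1.74 and -2.07 in control and at -2.03 and -2.34 in MN (-0.28 ± 0.21). On each slide the MN array was lower, by -0.29 and -0.28, yet MN array 1 lay above control array 2. Wnt10b was at -4.90 and -3.52 in control and at -4.14 and -3.67 in MN (0.30 ± 0.53). Its slides went opposite ways, with 0.76 on slide 1 and -0.16 on slide 2. Wnt8a was at -4.91 and -3.28 in control and at -4.75 and -3.92 in MN (-0.24 ± 0.66), again with opposite signs on the slides. On control array 1 the levels of Wnt10b and Wnt8a were close to the lowest detected there, -5.06. All 4 ligands had a limma adjusted p of 0.996 or more.

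Other ligands of known kidney roles differed by less than their SE. Wnt9b differed by 0.19 ± 0.27, Wnt7b by 0.17 ± 0.21, Wnt5a, a ligand of the noncanonical branch, by -0.20 ± 0.24, and Wnt5b by 0.11 ± 0.17. Wnt2b, Wnt8b and Wnt16 gave opposite signs on the slides. Wnt1 and Wnt9a differed by -0.06 ± 0.38 and -0.04 ± 0.16.

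Wnt1 also shows how far a value can rest on its probe. Its brighter probe (mm9 chr15:98624201-98624260, plus strand) was detected on all 4 arrays, at 0.04 and 0.77 in control and 0.00 and 0.68 in MN. The other probe of the same accession (chr15:98623276-98623335) was detected on no array, with levels from -7.37 to -6.96. The first holds AATAAA in its last 30 bases and the second does not. The probes shown above for Sfrp5, Sfrp4, Sfrp2, Fzd7 and Fzd5 lack it too and were detected on all 4 arrays. Whether the letters bear on the Wnt1 signals was not tested.
Wnt1, detected on 4 arrays: cttcctctgaggAATAAAatatctattttt
Wnt1, detected on no array: cacacgcgcgttctgcacgagtgtctatga

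Fzd2 likewise had a probe on all 4 arrays and another on none. Of the 13 genes with a pair of probes, 7 had differences of the same sign from both. In 4 genes (Fzd5, Lef1, Lrp6 and Wnt4) both probes were detected on all 4 arrays, and in all 4 the signs were the same.

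Among the receptors most values were lower in MN, though none passed. Of 9 Frizzled genes tested, 8 had lower values, 7 had both MN arrays below both control arrays (background 19.8%), and the median difference was -0.37. On slides 1 and 2 taken singly the median was -0.34 and -0.33, and it was -0.33 with normexp background correction and -0.35 with quantile normalization. The 8 genes stayed below 0, and below the median of all genes, under each of the 13 alternative settings. The block, the variance trend and the detection filters left these differences unchanged, so those settings could not alter a sign. Scaling to the median and the deposited values shifted the Frizzled values nearly alike. The Frizzled genes are separate genes, but they share these 4 arrays and are not replicates of a condition.

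Fzd9, a receptor gene studied in bone formation, had levels of -4.25 and -4.14 in control and -4.65 and -4.72 in MN. Both MN arrays were lower, by -0.40 and -0.59 on the slides, giving a difference of -0.49 ± 0.14 (adjusted p = 0.584, and 0.233 with the block). The MN levels were close to the lowest detected on those arrays, and normexp gave -0.33. Fzd7, a receptor of both the canonical and the noncanonical branch, was at 0.39 and 0.30 in control and at -0.08 and -0.07 in MN. The groups did not overlap and the difference was -0.42 ± 0.14 (adjusted p = 0.642, and 0.249 with the block). The dimmer Fzd7 probe, the one that resembles Fzd2, was detected on the arrays of slide 2 only and differed by 0.06. Fzd5 was at -2.71 and -2.98 in control and at -3.49 and -3.24 in MN. The difference was -0.52 ± 0.18 (adjusted p = 0.704, and 0.330 with the block), with -0.78 on slide 1 and -0.26 on slide 2, and its second probe gave -0.45.

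Fzd6, which also acts in planar cell polarity, had the lowest difference of the receptors. Its levels were -0.09 and -0.70 in control and -0.87 and -1.07 in MN, a difference of -0.57 ± 0.26 (adjusted p = 0.826). The control arrays were further apart than the MN arrays, but the groups did not overlap. Fzd8 was at -0.83 and -1.02 in control and at -1.17 and -1.41 in MN (-0.37 ± 0.17), without overlap. Fzd4, a receptor for norrin as well as for WNT proteins and known from vessels, was at 3.79 and 3.47 in control and at 3.51 and 3.14 in MN (-0.31 ± 0.22). Each MN array was lower than the control array of its slide, and MN array 1 lay just above control array 2. Fzd1 and Fzd3 differed by -0.25 ± 0.15 and -0.25 ± 0.14, both without overlap.

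Fzd2 was the Frizzled gene with higher values in MN. It was at -0.37 and -0.53 in control and at -0.09 and -0.06 in MN, both MN arrays above both control arrays, with a difference of 0.38 ± 0.14 (adjusted p = 0.745, and 0.298 with the block). The co-receptor genes Lrp5 and Lrp6 differed by -0.10 ± 0.23 and -0.16 ± 0.14, and the second Lrp6 probe gave -0.25.

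**Figure D3:**
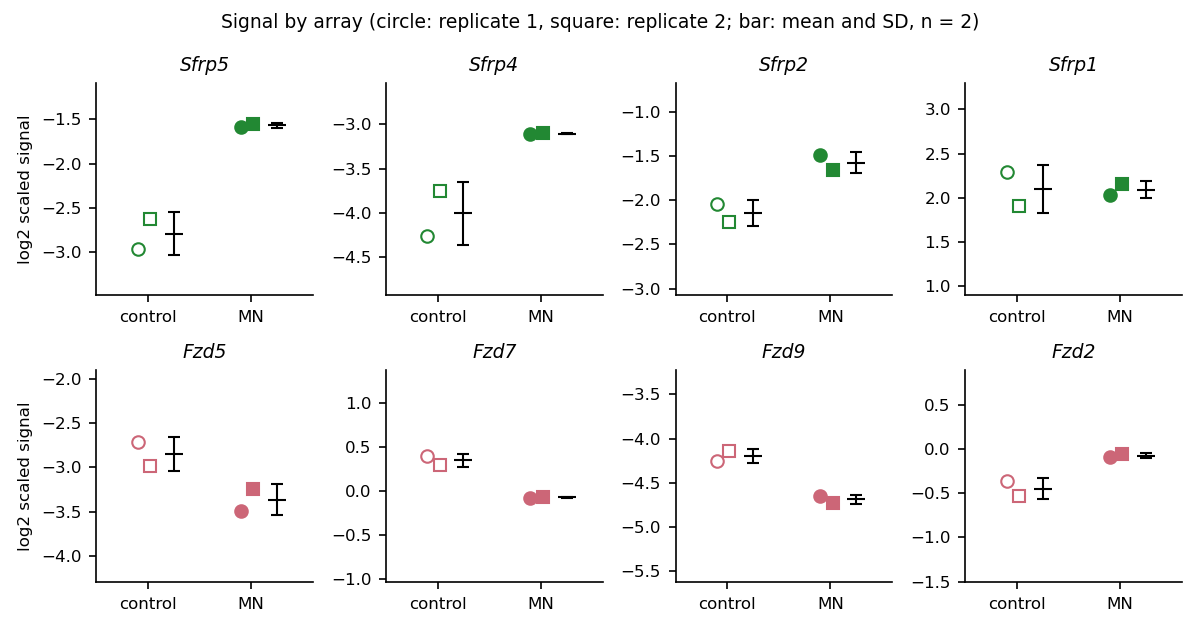
Levels (log2 scaled signal, vertical axis) of the 4 Sfrp genes and of Fzd5, Fzd7, Fzd9 and Fzd2 on each array (circle replicate 1, square replicate 2, open control, filled MN), with mean and SD (n = 2); every panel spans the same height. Sfrp5, Sfrp4, Sfrp2 and Fzd2 lie higher in MN, Fzd5, Fzd7 and Fzd9 lower, and Sfrp1 overlaps.

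Markers of other cell types were read beside these values. The markers of podocytes, proximal tubule, loop of Henle and distal tubule, which check the kidney label, were all detected on all 4 arrays. In whole kidney, fewer cells of a type and less RNA per cell cannot be told apart. Over all genes tested, 38.6% had higher and 61.4% lower values in MN. Beside the lower Frizzled values, all 5 markers of urothelium (Upk1a, Upk1b, Upk2, Upk3a and Krt5) had lower values in MN, and 0 passed. Their summed signal, in multiples of each array's 75th percentile, was 2.16 to 2.30 in control and 1.70 to 1.74 in MN. The collecting duct list had 3 of 4 tested markers lower and a summed signal of 48.2 to 50.8 in control and 42.2 in both MN samples. All 3 distal tubule markers had lower values (sums of 54.5 to 65.3 in control and 48.8 to 54.7 in MN), as had all 3 of ovary and oviduct (49.8 to 64.3 and 42.8 to 48.4), and 0 passed. The podocyte list went the other way, with 4 of 5 markers higher and sums of 25.1 to 26.1 in control and 42.2 to 45.3 in MN. Lower values were found for 3 of 4 endothelial markers (median -0.06), 3 of 4 leukocyte markers (-0.13) and 2 of 3 adrenal markers (-0.37). The proximal tubule list had 2 higher and 2 lower (0.03), and the loop of Henle list 2 higher and 0 lower (0.05). The part of these cell types in the Frizzled values was not tested.

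The secreted inhibitors held the largest differences of the list. Of 8 tested, 4 had higher and 4 lower values in MN, 3 had both MN arrays above both control arrays and 3 below (background 13.2% and 19.8%), and the median was 0.13. The higher values were those of Sfrp5, Sfrp4, Sfrp2 and Dkk3.

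Sfrp5, a ligand-binding inhibitor also known as a product of adipose tissue, was the only gene of the list with a difference of 2-fold or more (background 1.07% for higher values and 1.54% for lower ones, of which the list had 0). Its levels were -2.97 and -2.62 in control and -1.59 and -1.55 in MN. Both MN arrays lay well above both control arrays, by 1.38 on slide 1 and 1.07 on slide 2. The difference was 1.23 ± 0.18, or 2.34-fold (adjusted p = 0.345, and 0.172 with the block). With normexp it was 0.81.

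Sfrp4, an inhibitor also known from bone and from renal phosphate handling, was at -4.26 and -3.75 in control and at -3.11 and -3.10 in MN. The groups did not overlap, and the difference was 0.90 ± 0.22 (1.87-fold, adjusted p = 0.526, and 0.211 with the block). Normexp gave 0.34. Sfrp2 was at -2.04 and -2.25 in control and at -1.49 and -1.66 in MN. The difference of 0.57 ± 0.16 (1.48-fold, adjusted p = 0.584, and 0.196 with the block) was nearly equal on the slides, at 0.55 and 0.59, and was 0.37 with normexp. These 3 genes stayed above 0 under each of the 13 alternatives. The block, the variance trend, the detection filters and the mean of probes left their differences unchanged, so those settings could not alter a sign.

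Sfrp1, the fourth Sfrp gene on the array, did not follow them. It was at 2.29 and 1.91 in control and at 2.03 and 2.16 in MN, with overlapping groups and a difference of -0.0048 ± 0.19. The related gene Frzb was at 1.10 and 1.09 in control and at 0.87 and 0.94 in MN (-0.19 ± 0.13, adjusted p = 0.984). Its groups did not overlap.

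Markers of other cell types that could hold these transcripts were read as well. Of the mesangial, smooth muscle and fibroblast markers all 6 had higher values in MN (background 38.6%), 0 passed and the median was 0.33. Their summed signals were 17.7 to 21.4 in control and 26.3 to 28.6 in MN. The podocyte list, whose sums are given above, had 4 markers higher and 1 lower, with a median of 0.60, and 0 passed. Of 6 adipocyte markers 4 had higher and 2 lower values (background 38.6% and 61.4%), with a median difference of 1.49. The threshold was passed by 1, Adipoq (background 0.0198%). Adipoq and Retn, which define fat cells, were not above background on either control array and were detected on both MN arrays (background 0.0982%). The summed signal of the adipocyte list was 17.8 to 20.01 in control and 18.3 to 19.6 in MN, since Fabp4 made up most of it. The part of stroma, podocytes and fat in the Sfrp values was not tested.

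Wif1, which binds WNT ligands directly, was at -1.90 and -2.19 in control and at -2.22 and -2.44 in MN (-0.28 ± 0.18). Each slide gave a lower MN value and the MN arrays were the lowest of the 4, the nearest pair lying close together. Dkk2, which binds LRP6, was at 0.39 and 0.42 in control and at 0.08 and 0.32 in MN (-0.21 ± 0.16), without overlap. Dkk3, a divergent DKK protein made by injured tubules, was at 2.07 and 2.66 in control and at 2.49 and 2.76 in MN (0.26 ± 0.27). Its groups overlapped.

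The feedback and nuclear genes showed no shared direction. Nkd2, an inhibitor that binds Dishevelled, was at 0.74 and 1.90 in control and at 1.40 and 2.19 in MN. Slide 2 was higher than slide 1 in both groups, so the groups overlapped, while the difference within slides was 0.66 and 0.29 (0.47 ± 0.51, adjusted p = 0.9999, and 0.299 with the block). Its second probe was detected on 1 array and gave -0.53. Nkd1 was at -1.45 and -1.39 in control and at -1.36 and -1.17 in MN (0.16 ± 0.15). Its MN arrays lay above its control arrays by little, and its second probe, detected on 3 arrays, gave -0.65.

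Lef1, a DNA-binding partner of beta-catenin, was at -3.16 and -2.50 in control and at -3.16 and -2.79 in MN (-0.15 ± 0.30), with overlap. The second Lef1 probe is split over 18162 bases of mm9, as a probe across a splice junction is, and gave -0.25. Tcf7, the other such factor of the list and abundant in T cells, was at -4.80 and -4.83 in control and at -5.03 and -4.95 in MN. The measured difference was -0.18 ± 0.13 (limma adjusted p = 0.9999), but its MN arrays were not above background. With the lowest detected signal of each MN array in place of its value, control was 1.01-fold higher. That signal is not a strict limit. Wnt2b was not flagged on MN array 2 at -4.59, above the lowest detected level there, -4.77. The direction for Tcf7 is therefore not settled. The lowest detected levels also differed by array, at -5.06 and -6.04 in control and -4.89 and -4.77 in MN. Both control levels of Tcf7 lay below that of MN array 2. The loss of the detected flag therefore does not by itself show a lower Tcf7 signal. With quantile normalization the Tcf7 difference was 0.016.

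**Figure D4:**
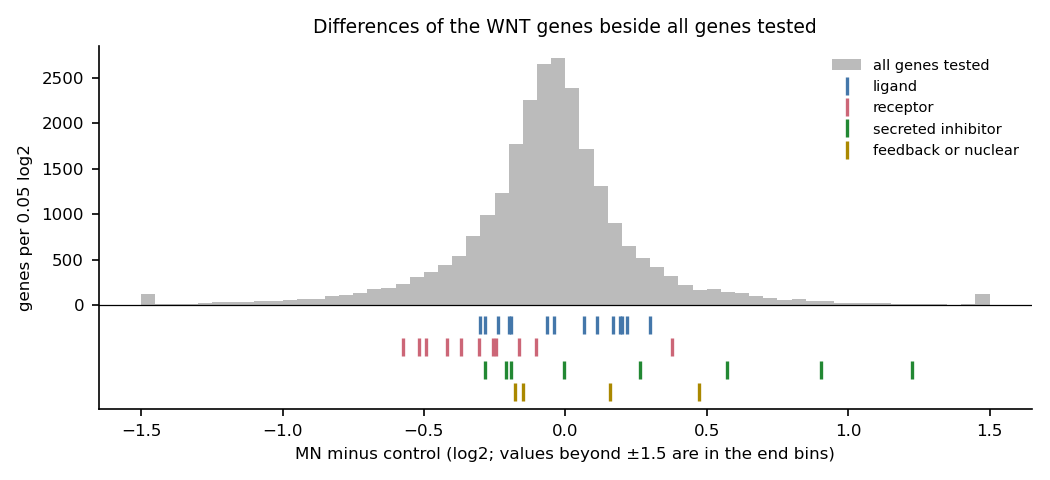
Differences between MN and control (log2, horizontal axis) of all 25296 genes tested as a histogram (genes per 0.05 log2, vertical axis) and of the 37 WNT genes as ticks under it, by role. The ligands and most other genes of the list lie within the bulk of the histogram, and Sfrp5 and Sfrp4 lie in its right tail.

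Beyond the 46 genes, 75 other genes of the pathway were read from a list covering secretion, receptor turnover, the cytoplasm, the nucleus, planar polarity and targets. Of these, 65 were tested with limma and 0 passed (background 0.0198%), with 27 higher and 38 lower in MN and a median of -0.04. At an unadjusted p under 0.05 there were 4 with higher values (background 3.54%) and 3 with lower values (background 3.49%). Porcn and Wls, needed for the secretion of WNT ligands, differed by 0.03 and -0.02. Ctnnb1, which encodes beta-catenin, differed by 0.01.

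Rspo1, a secreted protein that sustains Frizzled receptors at the cell surface, was at -3.80 and -3.79 in control and at -1.14 and -1.24 in MN. The groups stood far apart, by 2.66 and 2.55 on the slides, and the difference was 2.61 ± 0.14 (adjusted p = 0.066, 0.104 with the block, and 0.0575 to 0.633 over the alternatives). Normexp gave 1.64. The other R-spondin genes tested, Rspo3 and Rspo4, did not share this, with differences of -0.08 and -0.03, and Rspo2 was not tested.

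The receptor turnover genes include Lgr4, a receptor for R-spondins, and Znrf3 and Rnf43, ligases that remove Frizzled proteins. Of 6 tested, 5 had lower values in MN, 4 of them with both MN arrays below both control arrays (background 61.4% and 19.8%), and the median was -0.54. Lgr4 was at 0.17 and 0.03 in control and at -0.43 and -0.39 in MN (-0.51 ± 0.14, adjusted p = 0.569). Znrf3 was at -2.28 and -2.44 in control and at -2.67 and -3.17 in MN.

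Of 13 target genes tested, 9 had higher values, 7 of them with both MN arrays above both control arrays (background 38.6% and 13.2%), and the median was 0.23. Those at an unadjusted p under 0.05 included Snai1, a repressor of epithelial genes (0.51 ± 0.15), and Ccn4, first described as a WNT-induced secreted protein (0.44 ± 0.14). Myc differed by -0.49 ± 0.15, and the planar polarity gene Celsr3 by -0.67 ± 0.21. The adjusted p of these 4 genes ran from 0.602 to 0.622. Many signals besides WNT act on these genes.

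Upstream sequence was read for 32 of the 46 genes in the RefSeq promoter table (GRCm38.p6). The letters searched were CTTTG followed by 2 letters that were each A or T, a form of the TCF and LEF motif, on both strands of the 250 bases before the start. They were found for 5 genes (15.6%), namely Dkk1, Fzd7, Lef1, Wnt11 and Wnt5b, and for 16.8% of all genes in the table. Sfrp5, with the largest difference of the list, and Fzd7 are shown, from chr19:42202253-42202502 (minus strand) and chr1:59481897-59482146 (plus strand). Capitals mark a match.
Sfrp5: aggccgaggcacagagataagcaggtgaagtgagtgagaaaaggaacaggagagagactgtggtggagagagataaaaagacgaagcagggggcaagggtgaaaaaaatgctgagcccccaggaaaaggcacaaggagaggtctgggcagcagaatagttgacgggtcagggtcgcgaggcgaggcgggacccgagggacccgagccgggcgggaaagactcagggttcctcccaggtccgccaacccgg
Fzd7: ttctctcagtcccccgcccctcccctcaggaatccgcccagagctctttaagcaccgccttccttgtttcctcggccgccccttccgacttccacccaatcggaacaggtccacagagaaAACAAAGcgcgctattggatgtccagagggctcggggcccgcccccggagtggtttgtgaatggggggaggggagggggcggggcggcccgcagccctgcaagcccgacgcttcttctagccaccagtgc

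The Fzd7 window holds a match, CTTTGTT read on the other strand, and the Sfrp5 window holds none of these letters. The other 4 genes with a match had differences of -0.15 (Lef1), -0.30 (Wnt11) and 0.11 (Wnt5b), and Dkk1 was not detected. A match describes letters only.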

How the data were processed

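Total kidney RNA was labelled with Cy3 and hybridized 1 sample per array. The deposited scanner files give a linear intensity for each spot. Their headers name Agilent Feature Extraction 10.5.1.1 as the source of the background-subtracted processed signal and mm9 as the build of the probe positions. The deposited value table holds log2 values; matched to the scanner values over 55681 probes it was relative to the control mean, with replicates 1 and 2 exchanged in both groups (correlation 1.00 with the other replicate's array) and column medians from -0.04 to 0.03, and it served only as an alternative. How it was made: not given in the sources used here.

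Control and outlier spots were left out, spots of a probe were averaged, and log2 processed signal was set relative to each array's 75th percentile. Genes whose probe was well above background throughout the control group, the MN group or both were tested (25296), each through its brightest probe by mean over the 4 arrays, with limma 3.58.1 in R 4.3.3 (lmFit, eBayes, two-sided, Benjamini-Hochberg over all genes tested, threshold 0.05; residual df 2, prior df 1.99). Tables and figures used matplotlib 3.10.9, numpy 2.4.6, pandas 2.3.3 and Python 3.11.15. The scripts were tested on simulated data.

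The share of spots well above background was 65.9% and 79.5% in control and 64.0% and 63.1% in MN, and 0 were saturated. The spike-in slope, a check of the scanner software, was out of its range on both arrays of slide 1 (0.895 on each). It was in range on slide 2 (0.949 in control and 0.968 in MN). Slide, scan day and replicate number coincide, and the 2 arrays of a slide deviated from their group means together (correlation across genes 0.63); since the file headers place each pair on 1 slide, values within slides and with the slide as a block are given. The slides carry different annotation versions, and the 59 probes had the same names in both.

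Values on every array are given for genes with a difference of 2-fold or more, at an unadjusted p under 0.05 or detected on both arrays of 1 group and neither of the other, and for up to 4 further genes of each role with the largest differences. The genes, lists and rules were chosen with earlier results of these data known. Of the other pathway genes, those at an unadjusted p under 0.05 are named, except 1 that is not reported here. Wnt6, Wnt1, Wnt4 and Sfrp1 were described after their values were seen. Alternatives were normexp (offset 50), quantile or median scaling, the value table, other filters and probe rules, a variance trend, the block, other detection rules, and each array left out.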

Additional observations from a re-analysis of the deposited data

How the results depend on the processing

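Among the 37 WNT genes tested, 0 passed limma's adjusted threshold in the main analysis and under each of the 13 alternatives, while 1 to 10 had an unadjusted p under 0.05 (6 in the main analysis, 10 with the slide as a replicate block); without a filter 46 were tested and 6 had such a p. Of the 37 genes, 19 kept the sign of their difference under every alternative that tested them. The block, the variance trend and the filters left the differences of tested genes unchanged and could not alter a sign. Over all genes limma called 5, against 15 with normexp, 20 with quantile normalization, 11 when arrays were scaled to the median detected probe, 16 with a variance trend, and 0 with no filter, with probes detected on all 4 arrays only, with the replicate block and without any 1 array (0 to 0; 907 to 1429 at an unadjusted p under 0.05). The cause was not tested. Without control replicate 1, Sfrp1 was at 0.19 and without control replicate 2 at -0.20, and the median of the Frizzled genes ran from -0.46 to -0.27 with an array left out. With 1 array left in a group, its spread is assumed to be that of the other group. Of the other pathway genes 0 passed in any setting. Genes detected on all 4 arrays numbered 35, with 40 by the looser flag, 28 where every probe had to be detected, and 35 to 36 with an array left out. Normexp moved Sfrp4 from 0.90 to 0.34 and Wnt10b from 0.30 to 0.041.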
